A study of Mus musculus with 6 samples.

Results

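The miR-26 family of the mouse comprises 5 mature microRNAs (miRNAs) that are listed in the deposited counts of this nucleus accumbens (NAc) experiment, out of 1364 miRNAs in all. They are mmu-miR-26a-5p, mmu-miR-26b-5p, mmu-miR-26a-1-3p, mmu-miR-26a-2-3p and mmu-miR-26b-3p, written below without the species prefix. They were taken by name, as every miRNA of the miR-26a and miR-26b stems. No measured value entered this rule, but earlier results of these data were known when the family was chosen. The small RNA libraries were made from the NAc of adult male C57BL/6N mice aged 7 to 8 weeks. Mice of the morphine group were conditioned for 6 days in a conditioned place preference (CPP) apparatus with morphine at 10 mg/kg, which alternated with saline sessions, and mice of the saline group received saline. The tissue was collected 0.5 h after the preference test on day 7, and each group had 3 libraries. The series' design gives 6 mice to the 3 libraries of a group, although the study's text also describes 1 mouse to a library, and core and shell of the NAc were not separated. Whether the libraries of a group came from separately trained mice is not stated further, so the p-values measure the spread between these libraries.

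A miRNA is cut from a hairpin-shaped transcript as a short duplex, of which one strand, the guide, is loaded into an Argonaute protein and the other, the passenger, is mostly degraded. The guide then recognizes messenger RNAs through its seed, bases 2 to 8 from the 5′ end. For miR-26 the guide is the 5p strand. miR-26 guides are abundant in the brain and many other tissues, and a known target is Ezh2, a histone methyltransferase gene. All the hairpins lie inside genes of the CTD small phosphatases, Ctdsp1, Ctdsp2 and Ctdspl, whose proteins dephosphorylate the tail of RNA polymerase II and act with REST, a repressor of neuronal genes. The host mRNAs and the targets were not measured in these libraries.

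The mature sequences from RefSeq (GRCm38.p6), found for 5 of 5 members, are given first because they decide which member a read can be counted for. Capitals mark the seed.
miR-26a-5p: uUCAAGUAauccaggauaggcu
miR-26b-5p: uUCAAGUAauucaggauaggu
miR-26a-1-3p: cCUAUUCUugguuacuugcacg
miR-26a-2-3p: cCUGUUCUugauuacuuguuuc
miR-26b-3p: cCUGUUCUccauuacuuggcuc

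The guides miR-26a-5p and miR-26b-5p share the seed UCAAGUA, which no other of the 1679 mature mouse miRNAs in RefSeq carries. Over 21 compared positions they were identical at 19 and differed by C11U and C21U, counted from the 5′ end of miR-26a-5p with its base first. miR-26a-5p is 22 nt long and miR-26b-5p is 21 nt. How many mismatches the authors allowed when reads were compared with miRBase is not given in the sources used here, so some reads of one guide may have been counted for the other. The passenger strands of Mir26a-2 and Mir26b also share a seed, CUGUUCU, with miR-6932-3p and miR-7039-3p, whereas that of Mir26a-1 has a seed of its own, CUAUUCU. The strands miR-26a-2-3p and miR-26a-1-3p were identical at 16 of 22 positions, with G4A and A11G among the differences, so they tell the Mir26a loci apart better than the guides, which are identical.

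The hairpins show where each strand is cut, with the mature strands in capitals.
Mir26a-1: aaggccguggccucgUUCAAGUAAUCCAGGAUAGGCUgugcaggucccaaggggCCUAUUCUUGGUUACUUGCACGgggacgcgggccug
Mir26a-2: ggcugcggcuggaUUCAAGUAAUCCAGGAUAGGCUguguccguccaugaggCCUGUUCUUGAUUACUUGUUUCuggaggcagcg
Mir26b: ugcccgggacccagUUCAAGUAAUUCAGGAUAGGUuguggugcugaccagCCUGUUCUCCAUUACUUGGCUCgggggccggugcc

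In the GENCODE vM21 annotation of GRCm38, Mir26a-1 lies on the plus strand at chr9:119031796-119031885, in intron 5 of 7 of the principal transcript of Ctdspl. Mir26a-2 lies on the plus strand at chr10:126995530-126995613, in intron 5 of 7 of the principal transcript of Ctdsp2, and it overlaps an exon in 2 of the 4 annotated transcripts of that gene. Mir26b lies on the plus strand at chr1:74394310-74394394, in intron 4 of 6 of the principal transcript of Ctdsp1. Each host gene is on the same strand as its hairpin. A count of miR-26a-5p sums the products of Mir26a-1 and Mir26a-2.

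**Figure D1:**
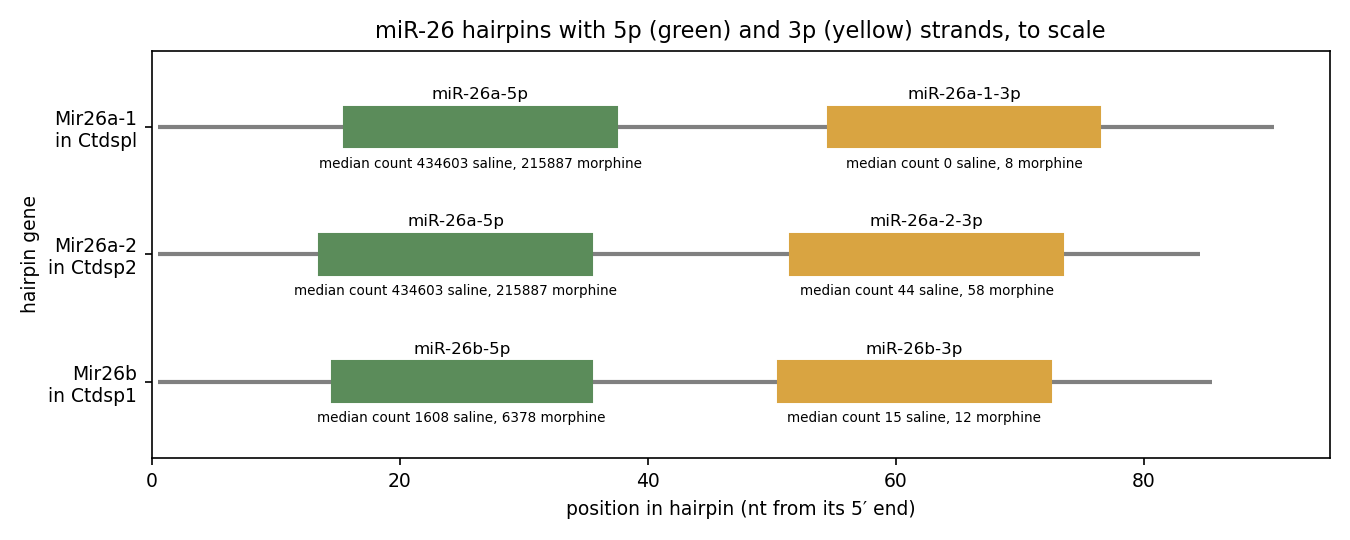
The 3 miR-26 hairpins drawn to scale, with position in nt from the 5′ end on the x axis, the hairpin gene and its host on the y axis, 5p strands in green and 3p strands in yellow. The median count per group stands under each strand, and the count of miR-26a-5p, 434603 in saline and 215887 in morphine, is that of both Mir26a loci together.

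The libraries held 4183333 to 9842050 counts in total, and 3 counts corresponded to 0.305 to 0.717 counts per M counts (CPM). These limits cover counting error only, since PCR reads without molecular identifiers are not independent molecules. Saline replicate 2 stood apart from its group. Its Spearman correlation with the other saline libraries was 0.869 and 0.874 over 899 miRNAs, against 0.952 between those libraries, and 0.907 to 0.926 with the morphine libraries. Fold changes of family members that rest on it are given with and without it. Neuronal miRNAs were present in every library, with a summed level of 6 of 6 listed markers of 130751 to 273945 CPM in the saline group and 179494 to 208132 CPM in the morphine group. The summed levels of 3 other marker lists did not overlap between the groups. Those of 2 endothelial miRNAs were 1485 to 5002 CPM in saline and 10984 to 16264 CPM in morphine, those of 4 erythroid miRNAs 216 to 312 CPM and 360 to 572 CPM, and those of 5 choroid plexus and ciliated cell miRNAs 1948 to 2768 CPM and 941 to 994 CPM. In each of these lists 1 miRNA was called, miR-126a-3p and miR-451a higher and miR-204-5p lower. The others were not called. Among them, mmu-miR-126a-5p (log2 fold change -0.96), mmu-miR-144-3p (-1.31) and mmu-miR-144-5p (-1.16) went opposite to their lists' sums. The choroid plexus and ciliated cell list had a median log2 fold change of -0.29, in the direction of its sum. The lists for oligodendrocytes, microglia and blood leukocytes, mural cells and fibroblasts, muscle, epithelium and liver overlapped. In them, 3 of 5 epithelial and 1 of 4 mural and fibroblast miRNAs were called higher. The epithelial sum was 239 CPM in morphine replicate 1, against 31.1 and 48.5 CPM in the other morphine libraries. In saline it was 8.60 to 37.5 CPM, and 0 of the 5 epithelial miRNAs separated the groups. Whether the epithelial calls hold without morphine replicate 1 was not tested. Called lower were 1 of 3 oligodendrocyte and 1 of 3 muscle miRNAs. The liver list had 1 of 3 in each direction and the microglial list 0. Of the neuronal markers, miR-124-3p was called lower. Over all miRNAs 9.68% were called in each direction. Among all listed markers miR-144-3p and miR-34b-5p were at 0 in at least 1 library. The part of these cell types in the values below was not tested, and in bulk tissue fewer cells of a type and less RNA per cell cannot be told apart.

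The question put to the family was whether its members differed between morphine- and saline-conditioned mice. The abundant guide miR-26a-5p had lower values in all morphine libraries, whereas miR-26b-5p, with the same seed, rose about 2.54-fold. Of the passenger strands, miR-26a-1-3p rose from almost no counts, and miR-26a-2-3p and miR-26b-3p did not pass the test. The study's criteria require an absolute log2 fold change of 0.58 or more together with p no higher than 0.05 before adjustment. With p from edgeR's quasi-likelihood (QL) test, 2 of 5 members were higher and 0 were lower. Over all 1364 miRNAs 9.68% were called higher, 9.68% lower and 19.4% in either direction. At an adjusted p under 0.05 the family had 0 calls with edgeR on all 6 libraries and 0 with DESeq2, and edgeR called 5.21% of all miRNAs, 3.08% higher and 2.13% lower. Without saline replicate 2, miR-26b-5p and miR-26a-1-3p passed that threshold, as did 386 of all 1328 miRNAs then tested. TMM-normalized values did not overlap between the groups for 3 of 5 members, 2 higher and 1 lower in morphine, against 22.1% of all miRNAs, 12.2% higher and 9.9% lower.

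miR-26a-5p held most of the family's counts. It had 228326, 488595 and 434603 counts in saline replicates 1, 2 and 3 and 298981, 194800 and 215887 counts in morphine replicates 1, 2 and 3. As a share of all counts of the library this was 5.46%, 5.86% and 6.03% for saline replicates 1 to 3, against 3.04%, 2.67% and 2.85% for morphine replicates 1 to 3. The saline shares lay close together, and every morphine share was below all of them. It was the miRNA of rank 3 to 5 by count in the saline libraries and of rank 9 to 11 in the morphine libraries. The mean share was 5.78% ± 0.292 (SD, n = 3) in saline and 2.85% ± 0.183 (SD, n = 3) in morphine.

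After TMM normalization, which corrects for a few miRNAs taking a large share of a library, the spread of miR-26a-5p in the saline group was wider. Its level was 41792, 73277 and 45582 CPM in saline replicates 1, 2 and 3, with saline replicate 2 far above the others. It was 33075, 28542 and 33901 CPM in morphine replicates 1, 2 and 3, again below all saline libraries. The log2 fold change was -0.75 (SE 0.45, 95% interval -1.69 to 0.19, edgeR QL test, Benjamini-Hochberg adjusted p = 0.414), which did not meet the criteria. The call depended on the scaling. With library totals in place of TMM the log2 fold change was -1.02 and met the criteria (adjusted p = 0.151, same edgeR test), and with the Wald test of DESeq2 it was -0.83 and met them too (adjusted p = 0.156). Over all alternatives the adjusted p ran from 0.121 to 0.717 by edgeR or DESeq2. When saline replicate 2 was left out, its log2 fold change was -0.46 (adjusted p = 0.121 with edgeR), below the required size. The median log2 fold change of all miRNAs moved with the scaling, from -0.15 with TMM to -0.40 with library totals. Relative to that median, miR-26a-5p was at -0.60 with TMM and -0.62 with library totals. Scaling also set the balance of directions over all miRNAs, with 50.0% of calls higher in morphine by TMM, 34.9% by library totals and 37.7% by upper quartile scaling.

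miR-26b-5p, the guide from Ctdsp1, was a minor member with the opposite direction. It had 1171, 5526 and 1608 counts in saline replicates 1, 2 and 3 and 11126, 5779 and 6378 counts in morphine replicates 1, 2 and 3. These are the deposited counts, and a supplementary table of the study lists other counts for this miRNA, which were not used. Its TMM-normalized level was 214, 829 and 169 CPM in saline replicates 1 to 3, against 1231, 847 and 1002 CPM in morphine replicates 1 to 3. Saline replicate 2 lay just below the lowest morphine library and far above the other saline libraries. The log2 fold change was 1.35 (SE 0.54, 95% interval 0.22 to 2.47, adjusted p = 0.167 with edgeR), from 404 ± 369 CPM (SD, n = 3) in saline to 1026 ± 193 CPM (SD, n = 3) in morphine. Without saline replicate 2 it was 2.42 (adjusted p = 9.62e-17, same edgeR test, the lowest over all alternatives, which reached up to 0.499). The call was lost without saline replicate 3 (log2 fold change 1.07) and without morphine replicate 1 (1.31), and also with DESeq2, the exact test of edgeR and a minimum of 10 counts in total.

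**Figure D2:**
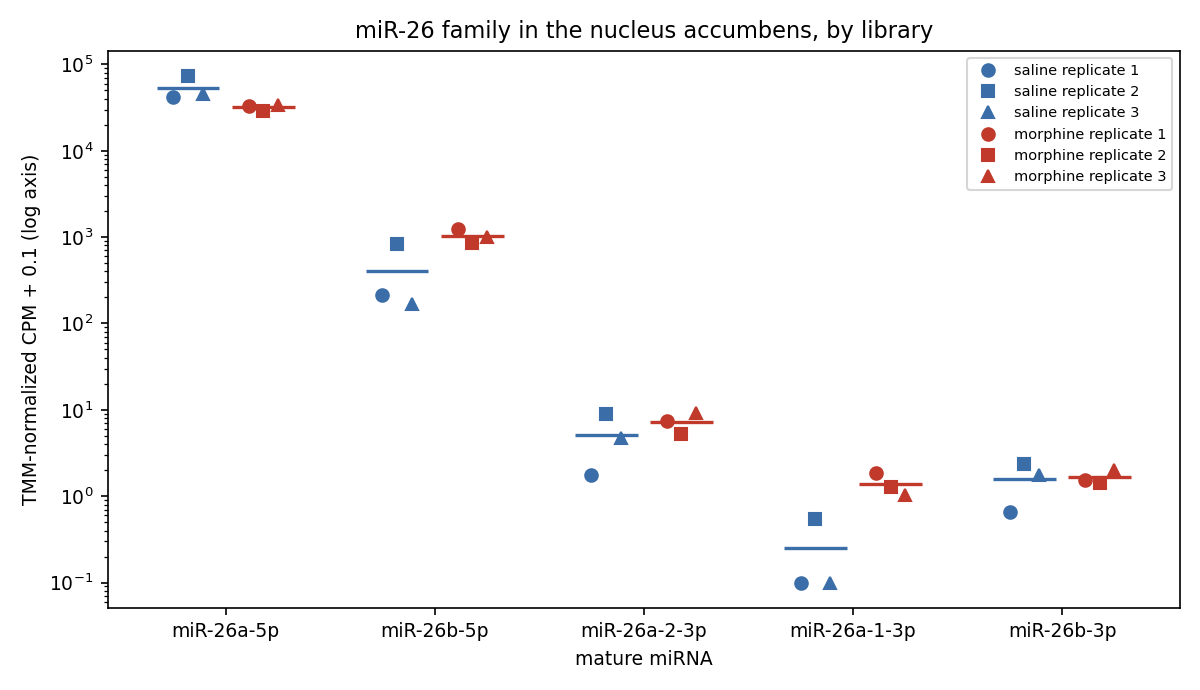
TMM-normalized level of each miR-26 strand in each library, on a log axis in CPM with 0.1 added, with saline in blue, morphine in red, a symbol for each replicate and a bar at the group mean. miR-26a-5p sits between 28542 and 73277 CPM, while the 3p strands stay below 10 CPM, and the groups do not overlap for miR-26a-5p, miR-26b-5p and miR-26a-1-3p.

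Because the guides differ in direction, their ratio within a library was compared, which no library scaling can change. Counts of miR-26b-5p were 0.513%, 1.13% and 0.370% of those of miR-26a-5p in saline replicates 1, 2 and 3. They were 3.72%, 2.97% and 2.95% in morphine replicates 1, 2 and 3. Saline replicate 2 was the nearest saline library to the morphine group, and the groups did not overlap. On the log2 scale the mean ratio was -7.38 ± 0.83 (SD, n = 3) in saline and -4.97 ± 0.19 (SD, n = 3) in morphine. The difference was 2.42, or 5.34-fold (exact two-sided permutation test, p = 0.1, and 0.1 after Benjamini-Hochberg adjustment over the 4 ratios compared). This is the smallest p that 3 against 3 libraries allow. TMM-normalized values of each guide had already separated the groups, in opposite directions. The ratio therefore had to separate them, and its p was fixed in advance. Leaving out each library in turn gave differences of 2.07 to 2.87, the largest of them without saline replicate 2. miR-26a-5p remained far above miR-26b-5p in all 6 libraries, and it made up 98.9% to 99.6% of the family's counts in saline and 96.4% to 97.1% in morphine. The whole family took 5.49%, 5.93% and 6.05% of the counts of the saline libraries and 3.15%, 2.75% and 2.94% of the morphine libraries (exact two-sided permutation test, p = 0.1, the smallest possible). miR-26a-5p made up most of these counts, and its own shares had already separated the groups, so this p was fixed in advance too.

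**Figure D3:**
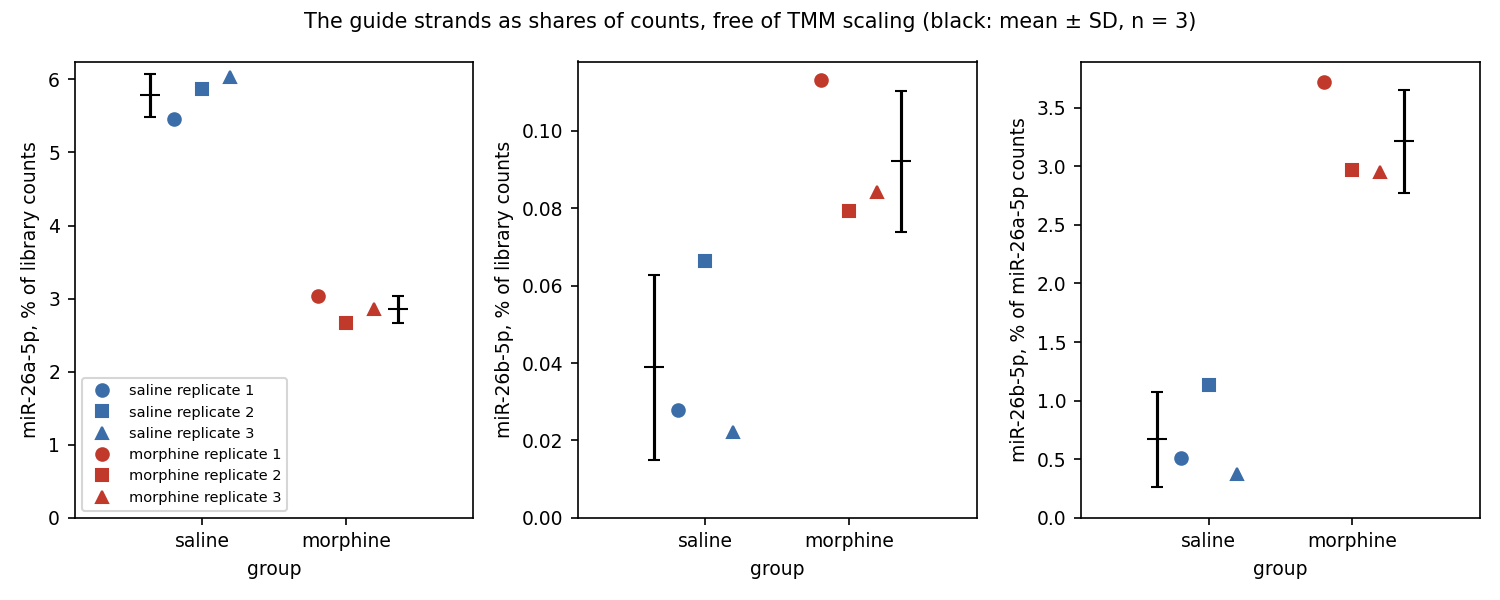
Counts of miR-26a-5p and of miR-26b-5p as percent of all counts of the library, and counts of miR-26b-5p as percent of those of miR-26a-5p, for each library by group, with the mean ± SD (n = 3) in black and axes starting at 0. The miR-26a-5p share is 5.46% to 6.03% in saline and 2.67% to 3.04% in morphine, and miR-26b-5p relative to it is 0.370% to 1.13% against 2.95% to 3.72%.

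The passenger strands were rare. miR-26a-1-3p, which comes only from the hairpin in Ctdspl, had 0, 3 and 0 counts in saline replicates 1, 2 and 3 and 16, 8 and 6 counts in morphine replicates 1, 2 and 3. Every morphine library was above every saline library, although none passed 1.77 CPM. Summed over the groups and scaled by TMM, 30 counts in morphine against 3 in saline gave a ratio of 9.74, with a 95% interval of 3.03 to 49.9 that covers counting error only. The strand met the criteria (fitted log2 fold change 3.03, SE 1.30, adjusted p = 0.144 with edgeR), and the call was lost without saline replicate 3 (2.45) and without morphine replicate 1 (2.84). All its saline counts were in saline replicate 2. With that library left out, the log2 fold change was 6.30 (adjusted p = 0.000748, same edgeR test), a value that rests on saline libraries at 0.

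miR-26a-2-3p, from the hairpin in Ctdsp2, had 9, 59 and 44 counts in saline replicates 1, 2 and 3, against 67, 35 and 58 counts in morphine replicates 1, 2 and 3. The groups overlapped, with the lowest value in saline replicate 1, the shallowest library. The log2 fold change was 0.51 (SE 0.66, 95% interval -0.85 to 1.87, adjusted p = 0.656 with edgeR). Without saline replicate 2, the highest saline library, it was 1.15 (adjusted p = 0.0565, same edgeR test) and met the criteria, as did 492 of all 1328 miRNAs then tested. miR-26b-3p, the passenger of miR-26b-5p, had 3, 15 and 16 counts against 13, 9 and 12 counts. The log2 fold change of miR-26b-3p was 0.03 (SE 0.77, 95% interval -1.56 to 1.63, adjusted p = 0.995 with edgeR), and its sign turned with the scaling, to -0.22 with library totals. A 2-fold difference of miR-26b-3p in either direction lies within that interval.

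In order of level, miR-26a-5p was first and miR-26b-5p second in every library. miR-26a-2-3p came next in all 6 libraries. Of the least abundant strands, miR-26b-3p was the higher in the 3 saline libraries and in morphine replicates 2 and 3, and miR-26a-1-3p in morphine replicate 1.

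Ratios involving the passenger strands were compared within libraries too, and each separated the groups. Each holds a strand whose TMM-normalized values already did so by themselves, as did 22.1% of all miRNAs. The separations are therefore not independent of those values, and how often ratios of other miRNAs separate the groups was not tested. miR-26a-1-3p was 0%, 5.08% and 0% of miR-26a-2-3p in saline replicates 1 to 3, against 23.9%, 22.9% and 10.3% in morphine replicates 1 to 3. With 0.5 added to each count, the log2 ratio was 2.52 higher in morphine (exact two-sided permutation test, p = 0.1). It was 1.88 higher with 1 added to each count and 1.75 higher without saline replicate 3. The ratio of miR-26a-5p to the summed passenger strands of its 2 loci was lower in all morphine libraries, with a log2 difference of -1.70, or 3.25-fold. The ratio of miR-26b-5p to miR-26b-3p was higher in all morphine libraries, by 1.49 on the log2 scale and by 0.88 without saline replicate 3. Each of these comparisons also stood at the smallest possible p of 0.1, which 3 against 3 libraries cannot pass. The few passenger counts make these ratios imprecise, and the log2 SD within the saline group was 1.33 for the locus ratio, 0.86 for the miR-26a strands and 1.05 for the miR-26b strands.

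**Figure D4:**
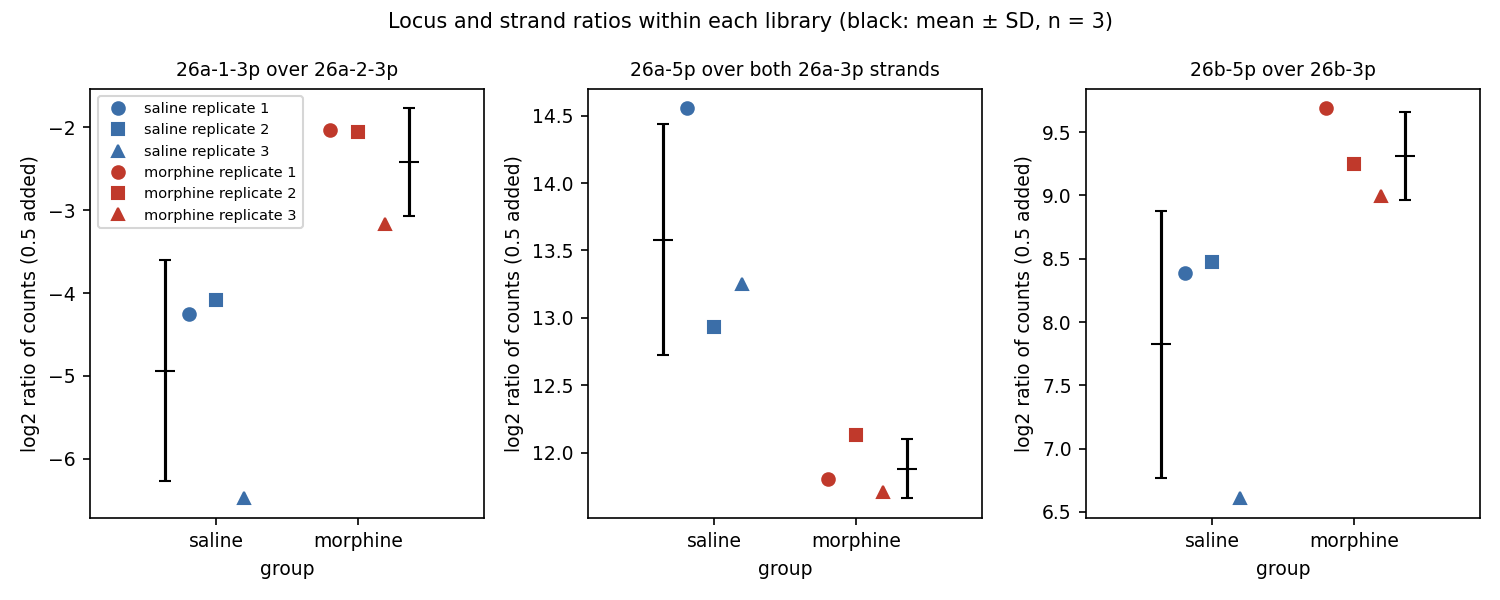
Log2 ratios of counts within each library, with 0.5 added to each count, for the Mir26a passenger strands, for miR-26a-5p over both its passenger strands and for miR-26b-5p over miR-26b-3p, with the mean ± SD (n = 3) of each group in black. In every panel the 3 saline and 3 morphine libraries do not overlap, and the means differ by 2.52, -1.70 and 1.49, morphine minus saline.

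The levels of miR-26a-5p and miR-26b-5p were also compared across the 6 libraries with those of other miRNAs. Among 212 miRNAs with a mean of at least 100 CPM, the Pearson correlation of log2(CPM + 1) between the guides was -0.24, and miR-26b-5p stood at place 134 of the list ordered by likeness to miR-26a-5p. The profiles most like miR-26a-5p were those of miR-125b-2-3p (r = 0.98), miR-411-5p (0.97), miR-22-3p (0.96), miR-30d-5p (0.96) and miR-134-5p (0.95). The profiles most like miR-26b-5p were those of miR-98-5p, let-7f-5p, miR-335-3p and miR-136-5p (all r = 0.99) and miR-488-3p (0.98). These correlations describe 6 libraries that share the group difference and the TMM scaling, and they carry no test.

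Other families were set beside miR-26 to see whether same-seed members elsewhere moved together. The let-7 family restrains proliferation and shares a seed across loci. Of its 10 listed guide strands, 7 were called higher and 0 lower by the same criteria, where 9.68% and 9.68% of all 1364 miRNAs were. Their median log2 fold change was 1.16, against -0.15 over all miRNAs. Among those called, let-7k had only 0, 0 and 1 counts in saline replicates 1 to 3 and 9, 0 and 5 in morphine replicates 1 to 3. Its groups overlapped, as did those of let-7f-5p. Without saline replicate 1, 2 of the 10 were called higher, where 121 of all 1344 miRNAs then tested were. The count ranged from 2 to 8 over the alternatives. The 8 came without saline replicate 2, where 278 of all 1328 miRNAs were called higher. let-7i-5p rose most clearly, at a log2 difference of 1.72 (SE 0.47, edgeR QL test, adjusted p = 0.0406), followed by let-7g-5p at 1.65 (SE 0.49). Of the 5 miR-30 guides, which also share a seed, 0 were called higher and 2 lower. These were miR-30e-5p with a log2 fold change of -2.93 and miR-30d-5p with -0.94, and miR-30c-5p, miR-30b-5p and miR-30a-5p had log2 fold changes of 0.70, 0.83 and 0.51 without a call. miR-30e-5p had 129392 counts in saline replicate 2 but 6177 and 9668 in the other saline libraries, and its groups overlapped. Without saline replicate 2 the miR-30 counts were 3 higher and 1 lower, where 278 of all 1328 miRNAs were higher and 214 lower. When replicate numbers formed a block, 0 of the miR-30 guides were called, against 179 of all 1364 miRNAs. The median over the 5 miR-26 members was 0.51, but these include passenger strands, unlike the let-7 and miR-30 lists. The miR-26 guides alone were at -0.75 (miR-26a-5p) and 1.35 (miR-26b-5p). Whether the families differ from each other was not tested.

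**Figure D5:**
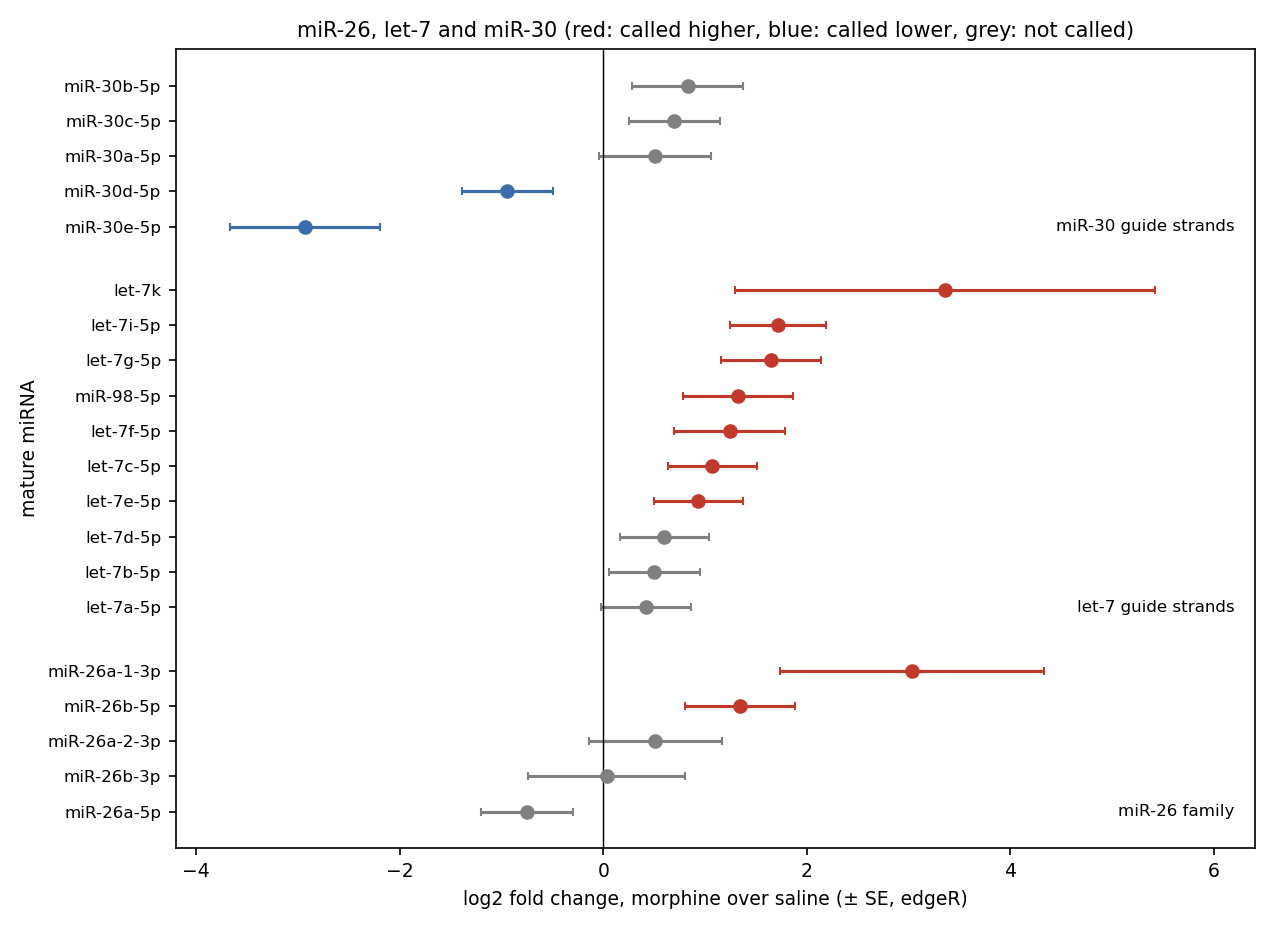
Log2 fold change (morphine over saline) with its SE from edgeR for the 5 miR-26 strands, 10 let-7 guides and 5 miR-30 guides, coloured red where called higher, blue where called lower and grey where not called. miR-26a-5p at -0.75 and miR-26b-5p at 1.35 lie on opposite sides of 0, and all let-7 guides lie above 0.

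Among other miRNA families carried in introns of related host genes, 20 of 21 listed strands were in the table. Of these, 3 were called higher and 2 lower, where 9.68% and 9.68% of all 1364 miRNAs were. Their median log2 fold change was -0.36. The strands called higher were miR-218-5p of the Slit genes, with a log2 fold change of 1.53, and miR-152-3p and miR-148b-3p of the Copz genes, with 1.50 and 1.04. Those called lower were miR-128-2-5p, a passenger strand from Arpp21, with -2.19, and miR-204-5p of Trpm3 with -1.50. Without saline replicate 2 these counts were 7 higher and 5 lower, and over all 1328 miRNAs then tested they were 278 and 214. miRNAs known to be repressed by REST, the partner of the miR-26 host proteins, were listed too, and of 10 strands 0 were called higher and 1 was lower, with a median of 0.00. The strand called lower was miR-124-3p, a neuronal miRNA (log2 difference -1.88, adjusted p = 0.0195 with edgeR). Leaving out saline replicate 2, 5 of the 10 were called higher, as were 278 of all 1328 miRNAs.

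Log2 fold changes moved with base composition over the whole table. Of 899 miRNAs with at least 10 counts in total, 734 (81.6%) had a RefSeq sequence, and Spearman's correlation between GC content and the fold change across them was -0.36, given as a description, since miRNAs are not independent. The median log2 fold change was 0.44 in the quartile with the lowest GC content (up to 42.9%) and -0.81 in the quartile with the highest. miR-26a-5p (40.9% GC) and miR-26b-5p (33.3%) both belonged to the lowest quartile, where miR-26a-5p, at -0.75, lay below the median and miR-26b-5p, at 1.35, above it. The passenger strands had 45.5% (miR-26a-1-3p), 36.4% (miR-26a-2-3p) and 50.0% GC (miR-26b-3p).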

How the data were processed

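Small RNA libraries from the NAc of 3 saline and 3 morphine samples were analysed, with groups and replicate numbers taken from the sample titles (0 columns not used). The authors discarded reads with adapters, unknown bases or low quality and kept lengths of 15 to 35 nt. Bowtie was used to take out other RNA classes and repeats, and what was left was compared with miRBase. They deposited raw read counts per mature miRNA. TPM columns deposited beside them equalled the count divided by the total of its column, per M, and were left untested. The miRBase release and the genome build are not given in the sources used here.

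TMM factors and the quasi-likelihood test came from edgeR 4.0.16 (R 4.3.3), fitted to all 1364 miRNAs with at least 1 count, with no covariate and Benjamini-Hochberg adjustment. Standard errors came from the fitted model. Ratios and shares were compared with exact permutation tests (scipy 1.17.1). The test was tried on simulated data. DESeq2 1.42.0 was an alternative. Members and lists were chosen with earlier results of these data known. Besides the members, the miRNAs named are the 5 most like each guide in profile, up to 4 per list with the smallest p, and the other called or same-family strands, which were added after their values were seen. Sequences and positions are those of RefSeq and GENCODE vM21 (GRCm38), not of the authors' table. No pair of libraries agreed within sampling noise (smallest chi-square per degree of freedom 91.1 over 15 pairs).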

Additional observations from a re-analysis of the deposited data

How the results depend on the processing

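Over 14 alternatives the miR-26a-5p log2 fold change stayed negative (-1.02 to -0.46), meeting the criteria with library totals (-1.02) and DESeq2 (-0.83), and ranging from -0.80 to -0.46 when a library was left out. miR-26b-5p stayed positive. It lost its call with DESeq2 (1.28), the edgeR exact test (1.35) and a minimum of 10 counts in total (1.28), and ranged from 1.07 to 2.42 with a library left out. miR-26a-1-3p ranged from 2.45 to 6.30 with a library left out, where 6.30 rests on saline libraries at 0 and depends on the prior count, and it was removed by filterByExpr. miR-26a-2-3p ranged from 0.20 to 1.15 with a library left out. miR-26b-3p changed sign with relative log expression (RLE) scaling (-0.032), library totals (-0.22), upper quartile scaling (-0.17), DESeq2 (-0.034) and the 10-count minimum (-0.022), and ranged from -0.24 to 0.38 with a library left out. The 4 ratios kept their direction in 8 of 8 alternatives each. The family share difference of -2.87 percentage points was -4.19 when the other most abundant miRNAs left the total. The causes were not tested.

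Of all miRNAs, 264 met the criteria, 176 to 492 with a library left out, the highest without saline replicate 2. At an adjusted p under 0.05 there were 71, against 160 with library totals, 153 with upper quartile scaling, 156 with DESeq2, 28 with the 10-count minimum and 0 to 386 with a library left out. Same-numbered libraries deviated together by correlations of -0.23, -0.28 and 0.14, so the numbers were not taken as pairs. With the replicate block, 179 miRNAs met the criteria and 32 had an adjusted p under 0.05. The block gave log2 fold changes of -0.71 for miR-26a-5p and 1.75 for miR-26b-5p, and no member's call changed. The passenger strands had at most 67 counts in a library.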
